A study of Mus musculus with 6 samples.

Results

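The p53 and GADD45 stress genes are 10 genes that are used as read-outs of p53 activity and of the related growth arrest and DNA damage response. All probe sets whose platform annotation names exactly 1 gene symbol, that of a member, were taken, which gave 18 of 45101 probe sets on the array. They represent 9 of the 10 genes, namely Mdm2, Trp53inp1, Cdkn1a, Ccng1, Btg2, Phlda3, Gadd45a, Gadd45b and Gadd45g. No probe set is named for Trp53 itself in the annotation used, so its level is not analysed here. The genes were chosen with results of the same genotype comparison known, so their genotype differences are given as a description without p-values.

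RNA came from macrophages grown from bone marrow, 3 arrays each for vimentin-deficient animals and their wild-type littermates, all 17 weeks old on a C57BL/6 background and fed rodent chow. Femoral marrow was grown at normal oxygen in medium with supernatant of the cell line CMG14-12 as the source of macrophage colony-stimulating factor, and both genotypes were handled alike. The labels name the genotype only as vimentin-deficient, and they call the samples biological replicates without saying which animal or culture each came from. Differences between arrays therefore measure the spread between these samples, and 3 against 3 is a design in which an exact two-sided permutation test of a single value cannot go below p = 0.1.

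The transcription factor p53 is held at a low level in resting cells by Mdm2, a ubiquitin ligase that marks it for degradation and that is itself a p53 target. When DNA is damaged, p53 accumulates and activates genes that stop the cell cycle, repair DNA or start apoptosis. The GADD45 proteins are small stress-induced proteins that bind PCNA, cyclin-dependent kinase 1 and the kinase MTK1 (the gene Map3k4), and they are induced by p53 and also through p53-independent routes such as NF-kappaB and cytokine signals. In macrophages, which withdraw from the cycle as they mature, p21 and the GADD45 genes respond to growth factor and inflammatory signals as well as to damage.

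Promoter windows are shown for the genes on which the results below turn, the GADD45 family and the p53 targets Cdkn1a and Ccng1. The windows run from 250 bases before to 50 bases after an annotated start site in RefSeq (mouse build GRCm38.p6), and 8 of the 9 measured genes had at least 1, with 9 windows in all. Both strands were searched. In the GADD45 windows the capitals mark CCAAT and the octamer ATTTGCAT on either strand. In Cdkn1a they mark a p53 full site, defined as a pair of p53 half-sites joined by at most 1 base with their core letters intact and at most 3 other letters off. In Ccng1 they mark 1 p53 half-site. Gadd45a lies at chr6:67037358-67037657 on the minus strand, Gadd45b at chr10:80929841-80930140 on the plus strand and Gadd45g at chr13:51846425-51846724 on the plus strand. Of the Cdkn1a windows the upstream one, chr17:29090729-29091028 on the plus strand, is shown, and Ccng1 lies at chr11:40755237-40755536 on the minus strand.
Gadd45a: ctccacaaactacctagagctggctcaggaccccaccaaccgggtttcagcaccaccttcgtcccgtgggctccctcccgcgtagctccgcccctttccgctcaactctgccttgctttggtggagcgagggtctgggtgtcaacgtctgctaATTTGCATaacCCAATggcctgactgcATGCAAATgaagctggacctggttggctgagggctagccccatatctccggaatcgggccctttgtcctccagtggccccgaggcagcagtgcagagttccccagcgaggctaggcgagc
Gadd45b: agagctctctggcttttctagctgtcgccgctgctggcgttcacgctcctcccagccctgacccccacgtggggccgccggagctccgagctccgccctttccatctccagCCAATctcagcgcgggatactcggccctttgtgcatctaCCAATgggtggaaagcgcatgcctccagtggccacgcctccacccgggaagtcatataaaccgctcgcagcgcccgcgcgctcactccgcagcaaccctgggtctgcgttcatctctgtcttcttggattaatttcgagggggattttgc
Gadd45g: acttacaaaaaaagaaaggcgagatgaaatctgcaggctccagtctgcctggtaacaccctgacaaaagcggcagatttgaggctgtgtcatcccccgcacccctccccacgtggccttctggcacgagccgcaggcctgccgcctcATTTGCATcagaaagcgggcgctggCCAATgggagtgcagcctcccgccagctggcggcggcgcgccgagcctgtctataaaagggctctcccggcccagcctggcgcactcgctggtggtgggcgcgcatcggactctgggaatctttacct
Cdkn1a: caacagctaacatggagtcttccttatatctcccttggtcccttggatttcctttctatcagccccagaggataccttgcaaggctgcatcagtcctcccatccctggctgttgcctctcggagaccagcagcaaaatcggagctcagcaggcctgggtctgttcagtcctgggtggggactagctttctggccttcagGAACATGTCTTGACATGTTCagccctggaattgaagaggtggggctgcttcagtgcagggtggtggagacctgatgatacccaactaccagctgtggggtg
Ccng1: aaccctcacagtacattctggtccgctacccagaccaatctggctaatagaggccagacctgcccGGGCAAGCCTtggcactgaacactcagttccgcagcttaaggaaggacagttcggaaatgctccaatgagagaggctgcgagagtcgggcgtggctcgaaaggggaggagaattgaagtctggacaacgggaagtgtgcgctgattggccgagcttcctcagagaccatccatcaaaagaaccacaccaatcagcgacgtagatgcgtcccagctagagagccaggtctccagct

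The upstream Cdkn1a window held the p53 full site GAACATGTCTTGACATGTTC at positions -51 to -32 from its own start site, and no other window of the measured genes held one. The second Cdkn1a window, chr17:29093519-29093818, surrounds another start site further downstream and held no p53 full site or half-site. Over all 32851 windows of the same length 1.06% held such a site. An exact p53 half-site, of which the full site contains 1, was found in 4 of 9 windows, those of Ccng1, Cdkn1a, Gadd45a and Mdm2, against 8.4% of all windows. CCAAT was found in 6 of 9 windows against 37.4% of all. The octamer ATTTGCAT was found in Gadd45a, at -97 to -90 and on the opposite strand at -70 to -63, and in Gadd45g at -103 to -96, against 1.7% of all windows, and Gadd45b had none. The GC box GGGCGG was found in 6 of 9 windows against 35.7% of all. GC content of the 9 windows ran from 54.7% to 72.0%, above the median of 52.7% over all windows, and the motif shares were not adjusted for it. The TATA box TATAAA was found in 2 of 9, those of Gadd45b and Gadd45g, against 13.6% of all. These matches describe letters in a short window and do not show binding.

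The array of vimentin-deficient replicate 3 stood apart from the other 5, with which it correlated at 0.975 to 0.979 across probe sets, while the others correlated with each other at 0.992 to 0.998. The calls, and the genotype differences on the brightest probe sets of the members and of the named pathway genes, are therefore given with and without it. The fit without this array has fewer vimentin-deficient than wild-type arrays, and the array was left out because its values stood apart. Adjusted p-values of that fit can therefore be too small. The array medians ran from 7.23 to 7.25 on the log2 scale. Vim read 7.43 ± 0.67 (SD, n = 3) on the vimentin-deficient and 13.32 ± 0.09 (SD, n = 3) on the wild-type arrays on its brightest probe set, 59.4-fold lower, and all 3 of its probe sets had this direction. Macrophage markers were bright on all arrays, with Lyz2 between 13.93 and 14.22 and Cd68 between 13.60 and 13.78. Of the 8 macrophage markers, Cd14, which encodes a co-receptor for lipopolysaccharide, was the only one past the threshold, and only without replicate 3. Its log2 difference was 0.59 (SE 0.08, limma adjusted p = 0.00201) without that array and 0.75 (SE 0.14, adjusted p = 0.249 in limma) with all 6. Some markers of other cells lay near the filter value of 6.93, among them Pax5 of B cells (7.05 to 7.22) and Klf1 of erythroid cells (7.39 to 7.64). Pdgfra and Col3a1 of fibroblasts (6.96 to 7.18 and 7.32 to 7.46) did so too. So did Ncr1 of natural killer cells (7.03 to 7.17) and Mpo of neutrophil precursors (7.42 to 7.67). Below the filter lay, among others, Cd3d and Cd3g of T cells, S100a9 and Camp of neutrophil precursors, and Ccr7 and Cd209a of dendritic cells. Others were brighter. H2-Ab1 and H2-Aa, listed with the dendritic cell markers, read at least 8.23 and 8.62 on all arrays. Cd3e of T cells reached 9.27, Elane of neutrophil precursors 8.10 and Col1a1 of fibroblasts 8.11. Ctsk of osteoclasts reached 9.01, on vimentin-deficient replicate 3. Since these are bulk samples, a change in the share of a cell type cannot be told apart from a change in RNA per cell.

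With all 6 arrays 0 of the 9 measured genes passed limma's adjusted p of 0.05 over all 13445 genes, where 0.0223% passed, all of them lower in vimentin-deficient cells, and 1 of the 9 had an unadjusted p under 0.05, against 1072 of 13445. Without vimentin-deficient replicate 3, 1 of the 9 passed, Gadd45a, against 2.34% of all genes. Taken as probe sets, 0 of the 17 above the filter passed with 6 arrays, against 0.0185% of all probe sets, and 1 passed without that array, against 1.64%. Groups did not overlap for 1 of the 9 with 6 arrays, Mdm2, against 15.5% of all genes. As the members were chosen on this comparison, nothing is read from these counts. The median log2 fold change of the 9 genes was -0.27 with 6 arrays and 0.05 without replicate 3, beside -0.02 and -0.01 over all tested genes.

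**Figure D1:**
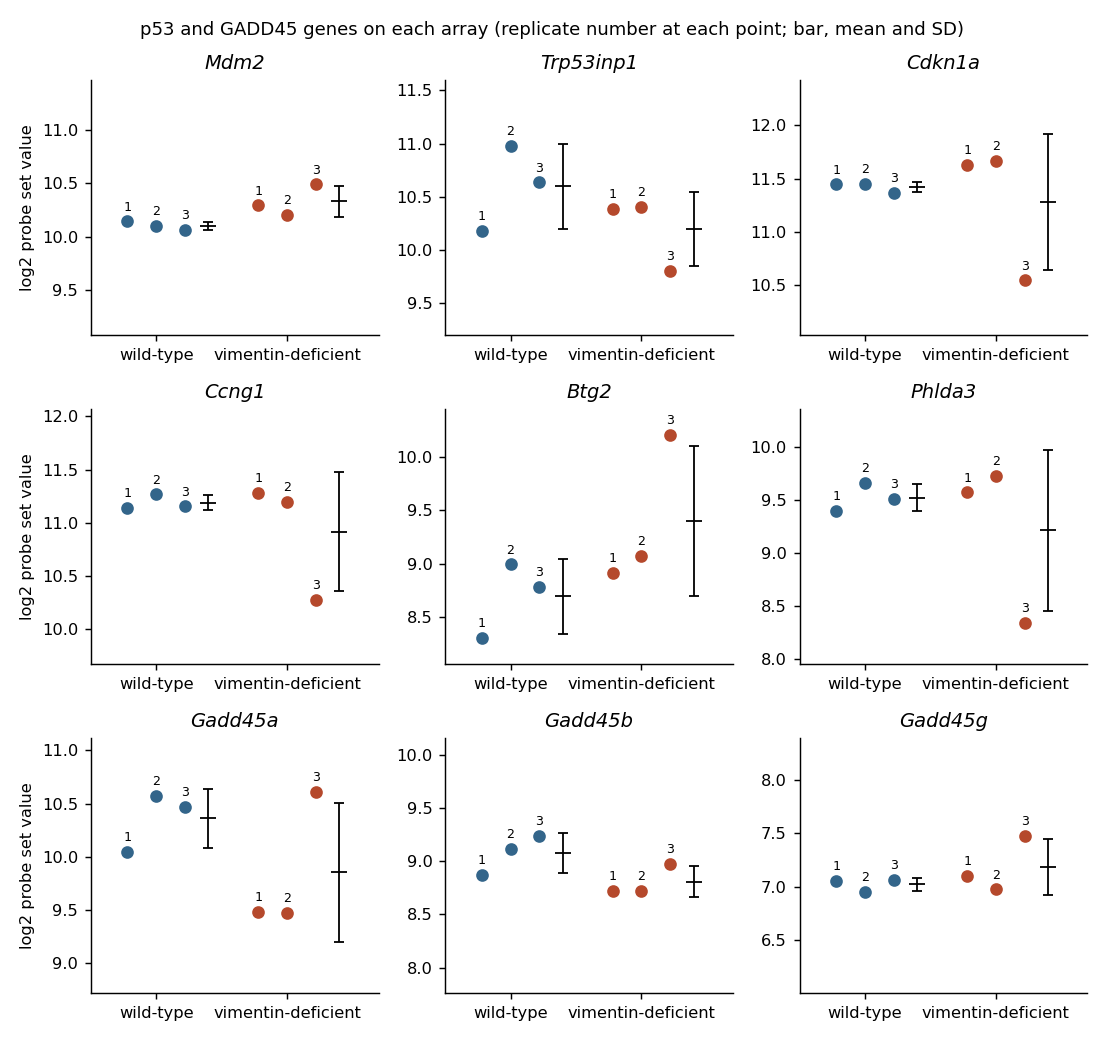
Log2 probe set value of each of the 9 measured genes on every array, wild-type in blue and vimentin-deficient in red, with the replicate number at each point and the mean and SD of 3 arrays beside each group. Vimentin-deficient replicate 3 lies below all other arrays for Trp53inp1, Cdkn1a, Ccng1 and Phlda3 and above them for Mdm2, Btg2, Gadd45a and Gadd45g, while Gadd45a is lowest on vimentin-deficient replicates 1 and 2.

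Mdm2, the inhibitor, was the one measured gene whose groups did not overlap on 6 arrays. Its brightest probe set read 10.29, 10.21 and 10.49 on vimentin-deficient replicates 1, 2 and 3 and 10.14, 10.10 and 10.06 on the wild-type arrays. The step was small, a log2 fold change of 0.23 (SE 0.09, 1.17-fold). The SD was 0.14 on the vimentin-deficient and 0.04 on the wild-type arrays. A second probe set had the same direction and no overlap, with 9.83, 9.89 and 10.20 against 9.68, 9.65 and 9.65 (log2 fold change 0.32, SE 0.11). The third lay below the filter, between 6.14 and 6.25 on all arrays. Without vimentin-deficient replicate 3 the first probe set had a log2 fold change of 0.15 (SE 0.08).

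Trp53inp1, a p53-induced cofactor that restrains proliferation, overlapped between the groups. It read 10.39, 10.41 and 9.80 on the vimentin-deficient arrays and 10.18, 10.98 and 10.63 on the wild-type arrays. The log2 fold change of -0.40 (SE 0.24) was about as large as the SD within each group, 0.34 and 0.40. Wild-type replicate 1 lay 0.63 log2 units below the mean of the other wild-type arrays. The second probe set had -0.26 (SE 0.16), and without vimentin-deficient replicate 3 the values were -0.20 (SE 0.18) and -0.15 (SE 0.13).

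Cdkn1a encodes p21, the inhibitor of cyclin-dependent kinases through which p53 halts the cycle before DNA replication. It read 11.63, 11.66 and 10.54 on the vimentin-deficient arrays and 11.45, 11.45 and 11.36 on the wild-type arrays. Vimentin-deficient replicates 1 and 2 thus lay just above every wild-type array and replicate 3 lay 1.10 log2 units below them. Its log2 fold change was -0.14 (SE 0.29) with 6 arrays and 0.23 (SE 0.07, 1.17-fold) without replicate 3, so its sign depended on that array. The second probe set repeated the pattern, with 10.40, 10.39 and 9.26 against 10.03, 10.09 and 10.07, and log2 fold changes of -0.05 (SE 0.29) and 0.33 (SE 0.08).

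Ccng1, cyclin G1, is a p53 target that works with a protein phosphatase on Mdm2. It read 11.28, 11.20 and 10.27 on the vimentin-deficient arrays and 11.14, 11.27 and 11.15 on the wild-type arrays. Replicates 1 and 2 lay within or next to the wild-type values and replicate 3 was 0.96 log2 units lower. All 3 of its probe sets showed replicate 3 lower, by 0.88 to 0.99 log2 units. On the brightest, the log2 fold change was -0.27 (SE 0.26) with 6 arrays and 0.05 (SE 0.08) without replicate 3, so its sign also turned on that array. Without replicate 3 the further probe sets had 0.06 (SE 0.08) and -0.01 (SE 0.08), so the probe sets did not share a sign there.

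Phlda3, a p53 target with a pleckstrin homology domain that opposes the kinase AKT, followed the same order. It read 9.57, 9.72 and 8.35 on the vimentin-deficient arrays and 9.40, 9.66 and 9.51 on the wild-type arrays. Replicate 3 lay 1.30 log2 units below the mean of the other vimentin-deficient arrays, and the groups otherwise overlapped. Its log2 fold change was -0.31 (SE 0.34) with 6 arrays and 0.13 (SE 0.10) without that array.

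Btg2, an antiproliferative p53 target that recruits the deadenylase complex to mRNA, went the other way on replicate 3. It read 8.91, 9.07 and 10.21 on the vimentin-deficient arrays and 8.30, 8.99 and 8.78 on the wild-type arrays. Replicate 3 lay 1.22 log2 units above the mean of the other vimentin-deficient arrays, and wild-type replicate 1 lay 0.59 below the mean of the other wild-type arrays. The log2 fold change of 0.71 (SE 0.35, 1.63-fold) was the largest of the 9 genes with 6 arrays and was 0.30 (SE 0.16) without replicate 3. The second probe set had 0.32 (SE 0.22) and 0.11 (SE 0.13), less than the first in both.

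Gadd45a, the founding GADD45 gene and the one with the best known p53 response, had the widest gap between vimentin-deficient replicates 1 and 2 and the wild-type arrays. It read 9.49, 9.47 and 10.61 on the vimentin-deficient arrays and 10.05, 10.57 and 10.47 on the wild-type arrays, on its single probe set. Replicates 1 and 2 lay below every wild-type array, and replicate 3 lay just above the highest of them. Between the genotypes the log2 fold change was -0.51 (SE 0.32, 1.42-fold) with 6 arrays and -0.89 (SE 0.14, 1.85-fold) without replicate 3. It kept its sign in the 6 fits that left out 1 array, between -0.89 and -0.32.

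Gadd45b, which is induced by NF-kappaB and transforming growth factor beta, was lower with a smaller step. Its brightest probe set read 8.72, 8.72 and 8.97 on the vimentin-deficient arrays and 8.87, 9.12 and 9.24 on the wild-type arrays, so that replicates 1 and 2 lay below all wild-type arrays and replicate 3 among them. The log2 fold change was -0.27 (SE 0.12) with 6 arrays and -0.35 (SE 0.10, 1.28-fold) without replicate 3. A second probe set agreed in sign and size, with -0.33 (SE 0.17) and -0.51 (SE 0.11), while the remaining one read between 8.52 and 8.68 on all arrays (-0.04, SE 0.07).

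Gadd45g, a cytokine-induced family member, was dim. It read 7.10, 6.97 and 7.48 on the vimentin-deficient arrays and 7.05, 6.95 and 7.07 on the wild-type arrays, close to the filter value of 6.93. Replicate 3 was higher than the rest, replicate 1 lay just above the wild-type arrays and replicate 2 lay among them. Its log2 fold change was 0.16 (SE 0.12) with 6 arrays and 0.02 (SE 0.06) without that array. Folds of so dim a gene can be compressed by background signal.

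**Figure D2:**
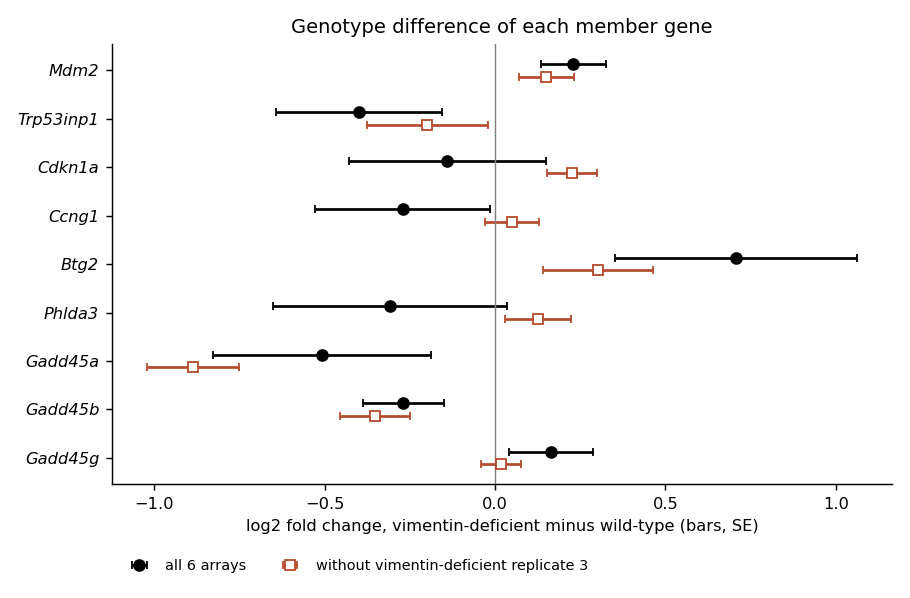
Log2 fold change, vimentin-deficient minus wild-type, of each measured gene with its limma standard error, with all 6 arrays as filled circles and without vimentin-deficient replicate 3 as open squares. Gadd45a moves from -0.51 to -0.89, Btg2 from 0.71 to 0.30, and Cdkn1a, Ccng1 and Phlda3 cross 0.

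Without vimentin-deficient replicate 3 the groups did not overlap for 4 of the 9 genes. Gadd45a and Gadd45b lay below all wild-type arrays on both remaining vimentin-deficient arrays, and Mdm2 and Cdkn1a lay above them. These 4 of 9 genes stand beside 29.2% of all tested genes whose 2 remaining vimentin-deficient arrays did not overlap the wild-type arrays. As the members were chosen on this comparison, nothing is read from this count either. The other 5 genes overlapped. Differences between members were not tested.

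On vimentin-deficient replicate 3 the measured genes split. Against the mean of vimentin-deficient replicates 1 and 2, Cdkn1a and Phlda3 were more than 1 log2 unit lower and Btg2 and Gadd45a more than 1 log2 unit higher, 4 of 9 genes against 2.65% of all tested genes. Trp53inp1 and Ccng1 were lower by less than that, and Mdm2, Gadd45b and Gadd45g were higher. In 8 of 9 genes this array lay beyond all 5 others, 4 above and 4 below, beside 57.9% of all genes. Where a gene had several probe sets, they shared the direction on this array. These are values of 1 array and have no test. The members were chosen with results of these arrays known, so nothing is read from these counts. Members other than Gadd45g were also brighter than most tested genes, and the shares were not adjusted for brightness.

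**Figure D3:**
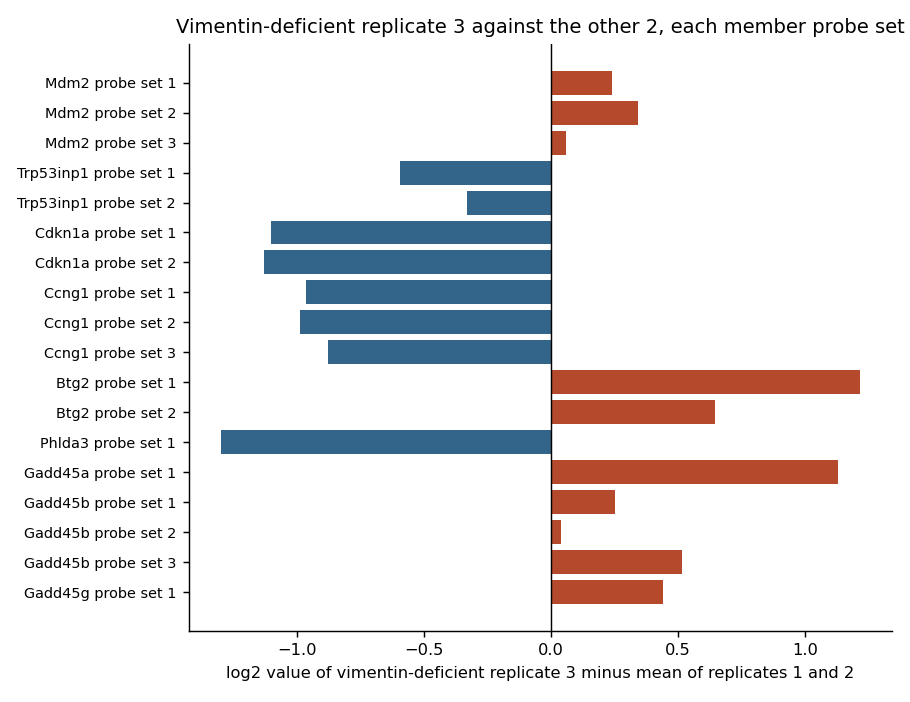
Log2 value on vimentin-deficient replicate 3 minus the mean of vimentin-deficient replicates 1 and 2, for each of the 18 member probe sets, those of a gene in order of brightness. Bars of Trp53inp1, Cdkn1a, Ccng1 and Phlda3 point to lower values, down to -1.30, and those of Mdm2, Btg2, Gadd45a, Gadd45b and Gadd45g to higher ones, up to 1.22.

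Other genes moved with that array. The mean log2 level of 13 proliferation markers was 7.47 on vimentin-deficient replicate 3, against 9.89 and 9.62 on replicates 1 and 2, and wild-type arrays ran from 9.07 to 9.67, and 11 of the 13 were more than 1 log2 unit below the mean of replicates 1 and 2. Top2a and Mcm5, the brightest of them, read 7.61 and 7.99 there and at least 9.77 and 9.40 elsewhere. Cdk1, a GADD45 partner, read 10.93, 10.80 and 8.97 on the vimentin-deficient arrays, and the wild-type values ran from 10.23 to 10.77. Among dendritic cell markers H2-Aa lay 4.07 log2 units above the mean of replicates 1 and 2 on that array, and H2-Ab1 read 11.53 there and at most 8.74 on the others, while Flt3 and Zbtb46 stayed at 7.24 and 7.08. Of the osteoclast markers, Ctsk read 9.01 there and at most 7.72 elsewhere, and Acp5 7.94 and at most 7.77. Oscar read 6.99 there and between 6.85 and 7.03 elsewhere, and Calcr lay below the filter. Macrophage markers also shifted on that array, and relative to the mean of replicates 1 and 2 the difference was 1.61 log2 units for Fcgr1, 0.68 for Mertk and -0.95 for Itgam. The part of these shifts in the p53 and GADD45 values was not tested.

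Wild-type replicate 1 also read lowest of its group for Trp53inp1, Btg2, Phlda3, Gadd45a, Gadd45b and Ccng1. The gap to the mean of the other wild-type arrays was 0.47 log2 units for Gadd45a and 0.30 for Gadd45b, and for Gadd45b this was wider than its genotype difference with 6 arrays. The proliferation markers averaged 9.67 on this array, against 9.07 and 9.40 on the other wild-type arrays. The part of this in the members' values was not tested.

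The genes with the most similar profiles were sought for the 3 members with the widest range, Btg2 (1.91 log2 units), Phlda3 (1.38) and Trp53inp1 (1.18). Likeness was the root mean square difference over the 6 arrays after each gene was centred on its wild-type mean. Closest to Btg2 were Klk1b11 (0.11 log2 units), Slfn8 (0.15) and Slfn5 (0.16). Closest to Phlda3 were Tmem154 (0.10), H2az2 (0.11) and P2ry13 (0.14), and closest to Trp53inp1 were Lpin1 (0.13), Cenpa (0.14) and Gyg (0.16). The Btg2 and Phlda3 neighbours share the deviation of vimentin-deficient replicate 3, which dominates the measure.

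Other p53 targets that are no members gave 0 calls with 6 arrays and 3 without vimentin-deficient replicate 3. Of 41 such genes 36 were tested, and 18 were higher and 18 lower in vimentin-deficient cells with 6 arrays (median log2 fold change 0.01, 6 with an unadjusted limma p under 0.05). Without replicate 3, 25 were higher and 11 lower (median 0.09, 15 with an unadjusted limma p under 0.05). Of all 13445 tested genes 5328 were higher and 8117 lower with 6 arrays, and 1072 had such a p. The all-gene counts without replicate 3 were 5980 higher and 7465 lower, and 1910 had such a p. These counts stand beside the lists below as well. Past the threshold without replicate 3, 2 of the 36 targets rose and 1 fell, against 1.31% and 1.03% of all genes in these directions. Sesn1, a stress-induced inhibitor of the growth kinase mTORC1, was the gene that fell. It read 11.30, 11.28 and 11.09 on the vimentin-deficient arrays and 11.70, 12.11 and 12.07 on the wild-type arrays, and the groups did not overlap with or without replicate 3. Its log2 fold change was -0.74 (SE 0.13, limma adjusted p = 0.230) with 6 arrays and -0.67 (SE 0.11, limma adjusted p = 0.0112) without replicate 3, and the 2 further probe sets above the filter had -0.50 and -0.63 with 6 arrays. On replicate 3 Sesn1 lay below all wild-type arrays and Gadd45a above them.

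The p53 targets that rose without replicate 3 were Ptp4a3 and Tap1. Ptp4a3, a phosphatase gene, read 8.29, 8.36 and 7.58 against 7.72, 7.85 and 7.82, with a log2 difference of 0.53 (SE 0.07, limma adjusted p = 0.00208) that was 0.28 (limma adjusted p = 0.759) with 6 arrays, and its second probe set had only 0.07. Tap1, the peptide transporter gene, which interferon also induces, had 0.41 (SE 0.08, limma adjusted p = 0.0221) and 0.35 with 6 arrays (limma adjusted p = 0.365). A second Tap1 probe set just above the filter had 0.16 without replicate 3.

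Apart from Sesn1 the arrest and repair targets did not pass in either fit. Zmat3, a p53-induced RNA-binding protein gene, read 10.14, 10.05 and 9.32 against 9.98, 10.10 and 10.11, low on replicate 3 as Cdkn1a and Ccng1 were. Its log2 fold change was -0.22 (SE 0.21) with 6 arrays and 0.03 (SE 0.08) without replicate 3. The targets of this list did not all share that direction, and Plk2 read 10.97 on replicate 3 and at most 10.63 on the other arrays. Of the 11 tested apoptosis targets 0 passed with or without replicate 3, and 1 and 3 had an unadjusted limma p under 0.05. The smallest p belonged to Pmaip1, which encodes the BH3-only protein NOXA and whose groups did not overlap. Its log2 fold change was 0.54 (SE 0.22) with 6 arrays, replicate 3 being the highest at 9.70, and 0.28 (SE 0.08) without that array. Bcl2l1, which encodes the survival protein BCL-XL, had 0.10 (SE 0.26) with 6 arrays and 0.40 (SE 0.12) without replicate 3. Fas, the death receptor gene, had -0.14 (SE 0.07) and -0.08 (SE 0.06) in these fits, and Cdip1 -0.12 (SE 0.07) and -0.11 (SE 0.08).

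Upstream regulators of p53 and partners of the GADD45 proteins gave 0 calls in limma with 6 arrays or without replicate 3. Of 20 regulators 12 were higher, with a median log2 fold change of 0.03 and 1 unadjusted limma p under 0.05, and without replicate 3, 11 were higher and the median was 0.01 with 2 such p-values. Ppp1r13b, which encodes the p53 cofactor ASPP1, had 0.17 (SE 0.07) with 6 arrays and 0.17 (SE 0.08) without replicate 3. The p53-induced phosphatase gene Ppm1d had 0.11 (SE 0.06) and 0.07 (SE 0.06), and the damage kinase gene Atm 0.12 (SE 0.07) and 0.13 (SE 0.08). The list of GADD45 partners holds Cdk1 and Map3k4 and also further kinases of MAP kinase cascades, while Pcna was listed with the p53 targets. Of its 11 tested genes 3 were higher and 8 lower with 6 arrays (median -0.05), with 0 unadjusted limma p-values under 0.05. Without replicate 3, 6 were higher and 5 lower (median 0.02), with 1 such p-value. The balance and the sign of the median thus turned on that array. The kinase gene Map2k3 had 0.10 (SE 0.08) with 6 arrays and 0.06 (SE 0.08) without it, Mapk9, which encodes JNK2, -0.08 (SE 0.07) and -0.08 (SE 0.08), and Mapk14, which encodes p38 alpha, -0.06 (SE 0.07) and -0.08 (SE 0.08).

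Relatives of the members, other inhibitors of cyclin-dependent kinases and the Btg, Tob, cyclin G and Phlda families, gave 0 calls in limma in both fits, with 0 and 3 unadjusted p-values under 0.05 among 12 tested genes. Btg1, a close relative of Btg2, had 0.35 (SE 0.30) with 6 arrays and 0.00 without replicate 3, on which it read 12.07 against at most 11.31 elsewhere. Cdkn2b and Cdkn2c, inhibitors of the kinases CDK4 and CDK6, had -0.19 (SE 0.18) and -0.20 (SE 0.23) with 6 arrays and 0.03 (SE 0.07) and 0.09 (SE 0.08) without replicate 3, on which both were low, so both signs turned on that array.

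Stress and immediate early genes gave 0 calls among 14 with 6 arrays, with 2 unadjusted limma p-values under 0.05. Without replicate 3, 2 of the 14 rose and 2 fell, against 1.31% and 1.03% of all genes in these directions. Egr1, an immediate early transcription factor gene, read 7.29, 7.36 and 8.07 on the vimentin-deficient arrays and 8.12, 7.87 and 7.82 on the wild-type arrays. It fell without replicate 3 (log2 fold change -0.61, SE 0.09, limma adjusted p = 0.00381), as did Atf3, a stress-induced transcription factor gene (-0.36, SE 0.07, limma adjusted p = 0.0310), and with 6 arrays they had -0.36 (limma adjusted p = 0.706) and -0.09 (limma adjusted p = 0.939). Both lay within or above the wild-type arrays on replicate 3, as Gadd45a did. Ddit3, also called Gadd153, and Nupr1 were higher on all 3 vimentin-deficient arrays, with log2 fold changes of 0.82 and 0.97 with 6 arrays (limma adjusted p = 0.170 and 0.138). Without replicate 3 they rose by 0.83 (limma adjusted p = 0.00491) and 1.09 (limma adjusted p = 0.000127), opposite in sign to Gadd45a.

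**Figure D4:**
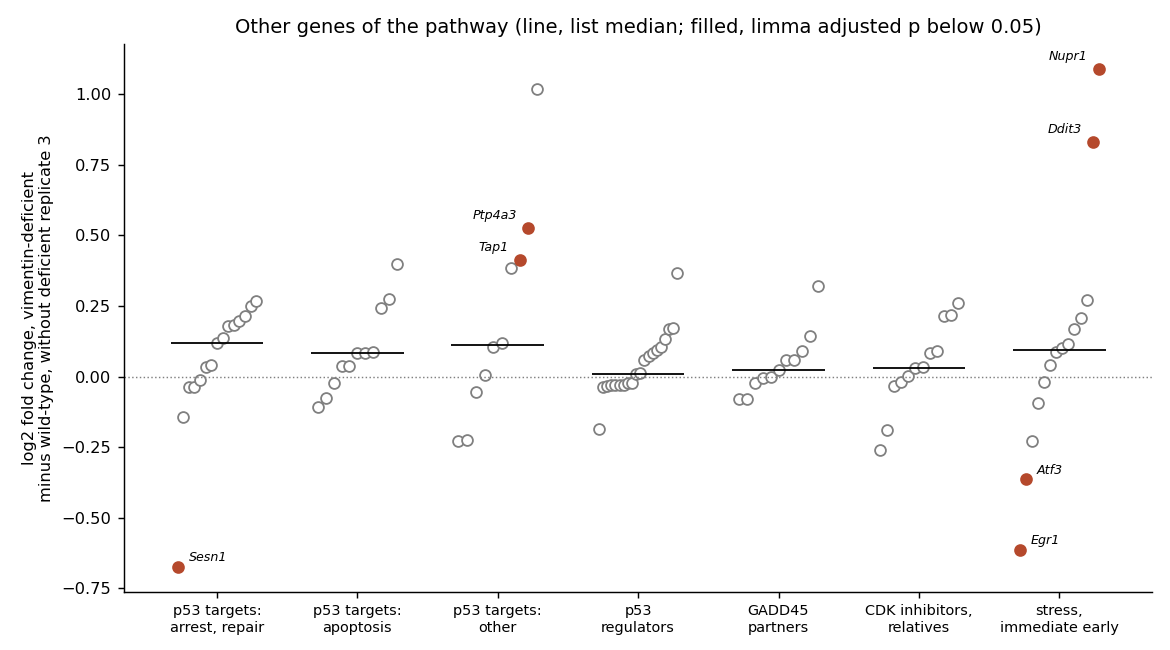
Log2 fold change, vimentin-deficient minus wild-type without vimentin-deficient replicate 3, of each tested gene of the 7 pathway lists, with the list median as a line and genes past the limma threshold filled and named. Sesn1, Egr1 and Atf3 are the filled genes below 0 and Ptp4a3, Tap1, Nupr1 and Ddit3 those above, and the list medians lie between 0.01 and 0.12.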

How the data were processed

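The authors deposited 1 table of log2 probe set values for 6 arrays; no source used here gives the summary or normalization method, and per the labels biotinylated cRNA was made from Trizol-extracted RNA. The values run from 5.43 to 14.50. Groups and replicate numbers came from the sample titles. Of 45101 probe sets, 64 were controls, 34945 named 1 gene symbol, 932 several and 9160 none, and 34741 were updated by Entrez ID. Each gene was represented by its brightest probe set; of 18193 genes, 13445 with a mean at or above the 40th percentile of probe sets (6.93) were tested. Of the 18 member probe sets 17 passed, representing all 9 measured members.

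The tests across genes, and separately across 27022 probe sets, used lmFit and eBayes with trend from limma 3.58.1 (R 4.3.3), with p-values adjusted by Benjamini-Hochberg over the whole table at 0.05; standard errors are limma's. The number of arrays limits precision. Members, lists and the rule for named genes (all members; per list the genes past the threshold or else the 3 with the smallest p; the 2 brightest of each marker list; nearest profiles) were chosen with earlier results of these data known. Zmat3, Plk2, Bcl2l1, Cdk1, Flt3, Zbtb46, Fcgr1, Mertk, Itgam, Oscar, Pdgfra and the markers below the filter were named after their values were seen. The labels do not say whether same-numbered samples belong together, and the main fits used no pairing. Correlations of their deviations were 0.50, -0.19 and 0.05, which cannot settle this with 3 arrays per group. Promoter windows and start sites are RefSeq's (GRCm38.p6); no build is named for the array values, and no gene coordinates were used.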

Additional observations from a re-analysis of the deposited data

How the results depend on the processing

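Counts of genes past the threshold and the members' fold changes were recomputed under 14 alternatives, and counts of probe sets past it under 13, since the mean of all probe sets of a gene gives none. Other counts were recomputed at most without vimentin-deficient replicate 3. Genes past the threshold, 3 with 6 arrays, numbered 93 with array quality weights, 0 with the replicate number as a block, and 0 to 315 when 1 array was left out (315 without vimentin-deficient replicate 3, 1 without replicate 2, 3 without replicate 1, and 0 without any 1 wild-type array). Probe sets past it, 5 with 6 arrays, numbered 3 without a mean-variance trend, 76 with array quality weights, 0 with the replicate block and 0 to 444 when 1 array was left out. Member genes past it numbered 0 in every fit except that without vimentin-deficient replicate 3, with 1, Gadd45a; the range over the fits that leave out 1 array was 0 to 1. Other p53 targets, 0 with 6 arrays, numbered 1 with array quality weights and 0 to 3 with 1 array left out. Regulators, partners, relatives and stress genes together, 0 with 6 arrays, numbered 2 with array quality weights and 0 to 4 with 1 array left out. Among the members' log2 fold changes, signs changed for Cdkn1a and Phlda3 without vimentin-deficient replicate 3 (0.23 and 0.13) and with array quality weights, which give that array a weight of 0.226 (0.14 and 0.00395), and for Ccng1 without that array (0.05). Mdm2, Trp53inp1, Btg2, Gadd45a and Gadd45b kept theirs in all 14 alternatives and Gadd45g in the 13 that tested it, since it did not pass the filter at the 60th percentile. Both filter settings, the fit without a mean-variance trend and the replicate block leave a fold change as it is, so no sign could change there. For a gene with a single probe set the mean of its probe sets does so too. The cause of the sign changes was not tested. The replicate block added no call of a member or pathway gene. No such call could be lost, since these genes had 0 calls with 6 arrays. Signal near background limits what Gadd45g can show.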
